A study of Mus musculus with 24 samples.

Results

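The 10 genes described here are core parts of the Notch pathway: the receptors Notch1, Notch2 and Notch3, the ligands Jag1 and Jag2, the glycosyltransferase Lfng, and the target genes Hes1, Hey1, Hey2 and Heyl. They were chosen by symbol, with no measured value in the rule, though with earlier results of these data known. All 10 of 10 were found among the 32040 genes of the count table, and all 10 were among the 16190 genes that passed the filter on low counts.

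RNA was sequenced from supporting cells of the fetal mouse gonad, sorted by FACS from reporter mice, in 24 libraries. Per the labels, the XX cells were pre-granulosa cells of female embryos carrying the Tg(Enh8-mCherry) transgene, and the XY cells were Sertoli cells of male embryos carrying the SOX9-IRES-GFP allele. Each cell type was taken at 4 embryonic days, from E11.5 over E12.5 and E13.5 to E15.5, with 3 libraries in each of the 8 groups. No treatment is named for any group. The labels do not say in which cells the Enh8 enhancer drives mCherry, whether embryos were pooled, or whether the libraries of a group came from separate animals, so the p-values measure the spread between these libraries, which may be technical. Sex, mouse line and fluorophore changed together between XX and XY and cannot be told apart. One XX E13.5 library (replicate 1) carries E12.5 in its stage field but E13.5 in its title and description, and was kept at E13.5.

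Notch signalling works by contact between neighbouring cells. A ligand of the Jagged or Delta-like family on one cell binds a Notch receptor on the next, the receptor is cut by an ADAM protease and then by γ-secretase, and its intracellular domain enters the nucleus, where it joins RBPJ and a Mastermind coactivator and turns on targets such as the Hes and Hey genes. Hes and Hey proteins are themselves transcriptional repressors. Fringe enzymes such as Lfng add sugars to the receptor and change which ligands it responds to. In the fetal gonad, Notch signalling is known from the interstitium and the vasculature, where it bears on fetal Leydig progenitors, and from the ovary, where it bears on germ cell cysts and follicle formation.

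The libraries held 11275251 to 37256881 counts in total. Levels are given as CPM, read counts scaled to a common library size by TMM, a difference as log2 with its standard error (SE), and a gene is called where edgeR's quasi-likelihood test gave a Benjamini-Hochberg adjusted p under 0.05 over all 16190 genes. In a single library 3 counts corresponded to 0.0774 to 0.26 CPM, so values of that size rest on a few counts. The labelled cell types were checked against their markers. The summed CPM of 10 Sertoli markers was 2144.1 to 11402 in the XY libraries and 196.3 to 1012.6 in the XX libraries, and the sum of 10 pre-granulosa markers was 832.9 to 2855.3 in XX and 367 to 1158.1 in XY. Across stages the pre-granulosa ranges of XX and XY overlapped, though at each stage every XX library was above every XY library. Foxl2, the pre-granulosa transcription factor, was at most 0.261 CPM in any XY library. Other markers of that list were present in XY, where 9, 6, 5 and 4 of the 10 averaged at least 1 CPM over the 4 stages. In XX all 10 did so at every stage.

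The 3 XX E11.5 libraries stood apart from each other. The summed CPM of 8 mural cell markers was 281.5, 162.9 and 905.8 in replicates 1, 2 and 3. The sum of 10 interstitial markers was 986.3, 548.3 and 3112.4, that of 8 immune markers 232.3, 122.4 and 370, and that of 8 erythroid markers 11351.5, 3262.9 and 28356.2. Replicate 3 was the highest and replicate 2 the lowest on each of these lists, while the pre-granulosa sum ran the other way, at 1115.8, 1742 and 832.9. Every result that uses the XX E11.5 group was therefore also computed without each of these libraries.

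At E11.5 Notch1, Notch3, Jag2, Hes1, Hey1 and Hey2 did not pass the test between the cell types with all libraries in the fit, and from E12.5 most of the 10 genes had separated into a set with more RNA in Sertoli cells and a set with more RNA in pre-granulosa cells. Notch1, Jag1 and Lfng had more RNA in XY at each of the 3 later stages, and Heyl was higher in XY at E13.5 and E15.5. Hes1 and Hey1 were higher in XX at the same 3 later stages, and Notch3 was higher in XX at E12.5 and E13.5. At E11.5, 3 of the 10 genes were called higher in XX, against 21.4% of all genes tested, and 1 was called higher in XY, against 20.6%. For E12.5, XX was the higher in 3 genes (30.5% of all genes) and XY in 5 (31.5%). E13.5 gave 3 genes for XX (32.8%) and 4 for XY (33.3%), and E15.5 gave 2 for XX (34.9%) and 4 for XY (34.4%). The shares of the 10 genes called in each direction were thus near those of all genes at most stages, so the counts are no result about these genes. The median log2 difference of the 10 genes (XX minus XY) was 0.09, -0.59, 0.18 and -0.81 from E11.5 to E15.5, beside 0.02, -0.01, 0.01 and 0.05 over all genes tested.

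**Figure D1:**
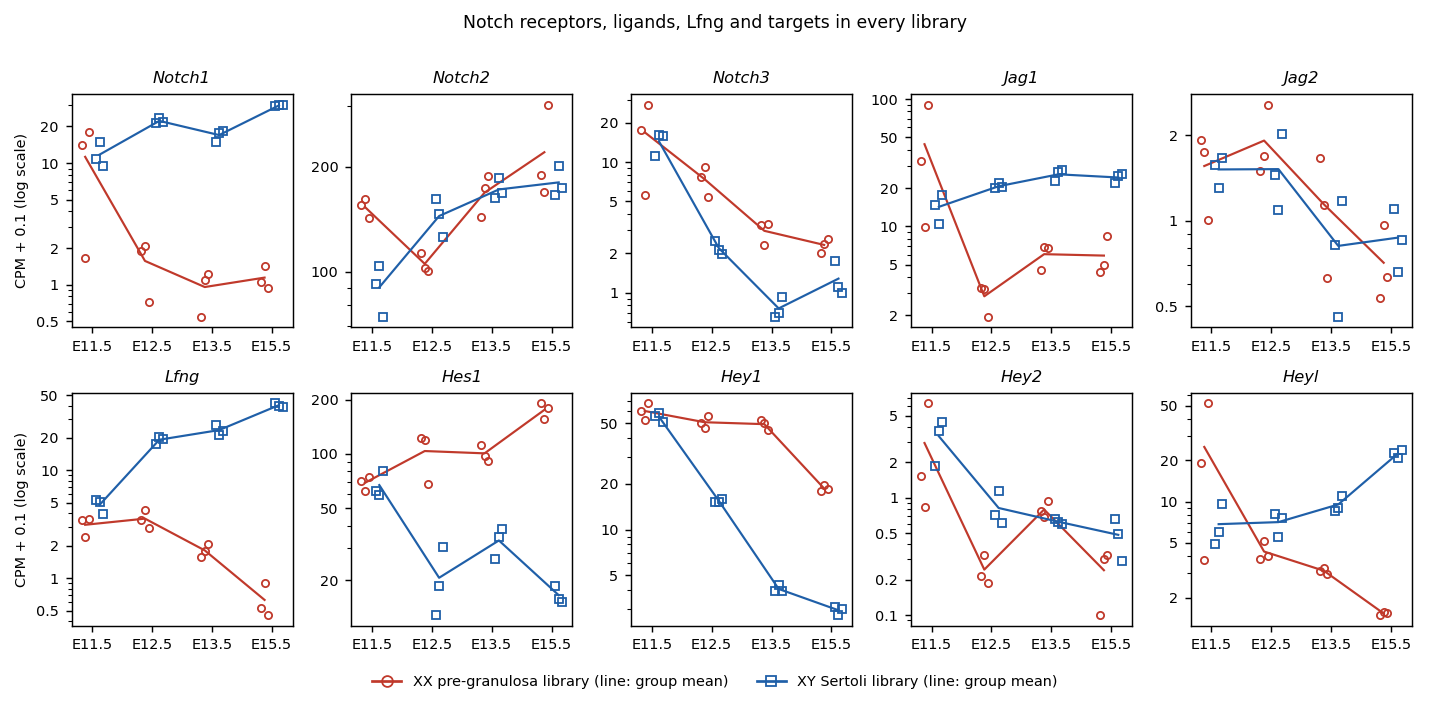
CPM plus 0.1 (log axis) of the 10 genes at the 4 stages; circles are the 3 XX pre-granulosa libraries of a stage, squares the 3 XY Sertoli libraries, and lines join group means. The XX and XY libraries of Notch1, Jag1, Lfng, Hes1 and Hey1 do not overlap from E12.5 on, while those of Jag2 overlap at all 4 stages.

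**Figure D2:**
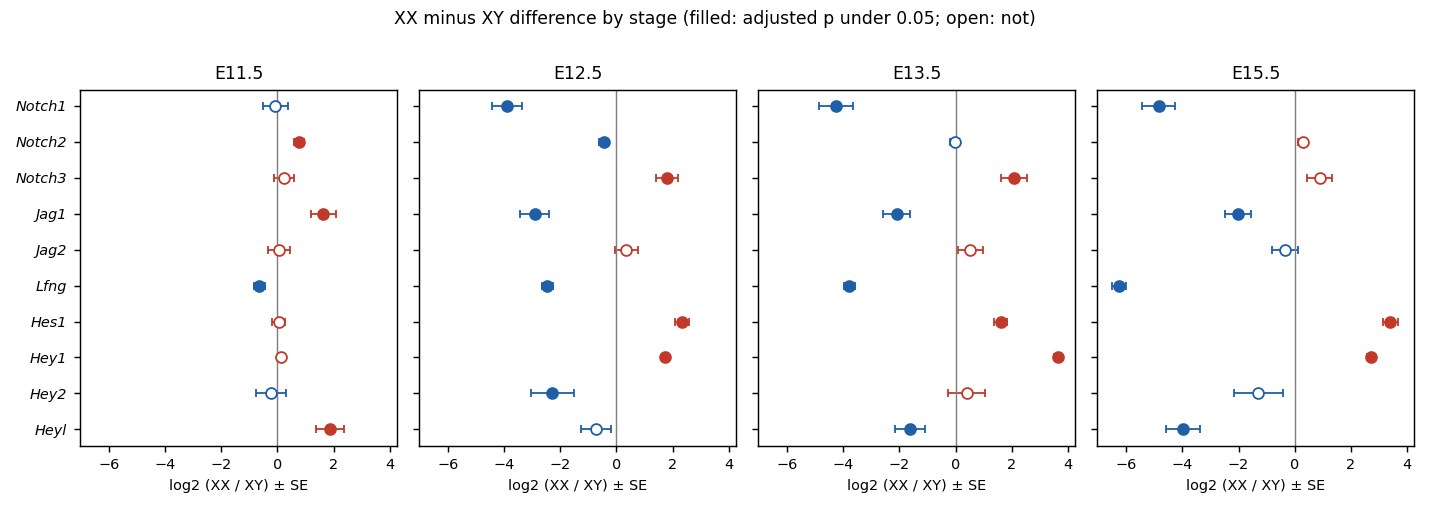
log2 difference between XX and XY (horizontal axis, 0 meaning equal levels) of each gene at each stage, with bars of 1 SE from the fit to all 24 libraries; filled points passed an adjusted p of 0.05. The points of Notch2 and Heyl lie nearer to 0 at E12.5 than at E11.5 and those of the other 8 genes farther from it, and the farthest of all is Lfng at E15.5, at -6.27.

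Notch1, a receptor whose intracellular domain is a strong activator of RBPJ-dependent transcription, lies on GRCm38 chr2:26457903-26516663 (minus strand). In the XX libraries it measured 14.1, 1.56 and 17.8 CPM (E11.5), 1.79, 2 and 0.615 (E12.5), 0.444, 0.996 and 1.13 (E13.5) and 0.955, 1.33 and 0.846 (E15.5). In the XY libraries it measured 10.7, 14.9 and 9.3 CPM (E11.5), 21.4, 23.4 and 21.6 (E12.5), 14.9, 17.6 and 18.2 (E13.5) and 29.4, 30 and 29.7 (E15.5). Every XY library from E12.5 on was thus above every XX library of its stage, while at E11.5 the groups overlapped and 1 XX library, replicate 2, was far below the others. The E11.5 difference was -0.07 ± 0.46 on the log2 scale (adjusted p = 0.914, edgeR), and it was 0.45 without XX replicate 2 and -0.6 without XX replicate 3. Notch1 was 15-fold higher in XY at E12.5 (log2 -3.91 ± 0.54, adjusted p = 3.3e-06, edgeR), 19.2-fold higher at E13.5 and 28.7-fold higher at E15.5 (log2 -4.84 ± 0.59, adjusted p = 4.34e-07, edgeR). In bulk samples such as these, fewer cells that carry a transcript and less of it per cell cannot be told apart.

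The separation of Notch1 between E11.5 and E12.5 came with a fall in XX. The XX mean dropped from 11.1 ± 8.51 (SD, n = 3) to 1.47 ± 0.746 CPM (log2 -2.9 ± 0.54, adjusted p = 0.000453, edgeR), although XX E11.5 replicate 2 was already within the E12.5 range. Without XX E11.5 replicate 3 the fall was -2.39 (adjusted p = 0.00315, edgeR). With only the libraries compared in the fit it was -2.95 and did not pass (adjusted p = 0.0717, edgeR). The XY means were 11.6, 22.1, 16.9 and 29.7 CPM over the 4 stages. No step between neighbouring XY stages passed the test for Notch1 (adjusted p = 0.0937, 0.621 and 0.225, edgeR), nor did the test of any change across the XY stages (adjusted p = 0.0633). Notch1 is also an endothelial receptor. The sum of 12 endothelial markers in the XY libraries was 33.4 to 43.8 CPM at E11.5 and 35.2 to 42.8 from E12.5 on. In the XX libraries it was 37.1 to 70.1 CPM at E11.5 and 50.6 to 70.5 from E12.5 on. Pecam1, 1 of the 12, did not follow the sum. It averaged 1.53, 7.02, 10.4 and 15.6 CPM in XY over the 4 stages and 7.97, 7.88, 8.22 and 5.74 in XX. The part of such cells in the Notch1 difference was not tested. In the annotation 9.76% of the exonic bases of Notch1 are shared with exons of transcripts on the opposite strand, and whether the counting used strand is not given in the sources used here.

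Notch2, the receptor with the most RNA of the 3, was abundant in both cell types (GRCm38 chr3:98013527-98150361, plus strand). Its XX libraries measured 155.7, 161.3 and 142.8 CPM (E11.5), 113, 102.5 and 100.2 (E12.5), 143.3, 174 and 188.3 (E13.5) and 189.7, 169.8 and 301.2 (E15.5). Its XY libraries measured 92.4, 103.8 and 74.1 CPM (E11.5), 161.5, 146.4 and 125.3 (E12.5), 162.8, 185.8 and 167.9 (E13.5) and 166.5, 200.9 and 173.8 (E15.5). The order of the cell types changed with stage: XX was 1.7-fold higher at E11.5 (log2 0.77 ± 0.17, adjusted p = 0.000857, edgeR) and XY 1.37-fold higher at E12.5 (log2 -0.46 ± 0.16, adjusted p = 0.0208, edgeR), with no overlap between the libraries at either stage. At E13.5 and E15.5 the libraries overlapped. At E15.5 the difference of 0.29 ± 0.16 (adjusted p = 0.122, edgeR) rested on XX replicate 3, without which it was -0.01. The E12.5 call ended when any of 5 libraries was left out, among them XY E12.5 replicate 1 (log2 -0.32, adjusted p = 0.147, edgeR). In XX, Notch2 fell between E11.5 and E12.5 (log2 -0.54 ± 0.17) and rose from E12.5 to E13.5 (log2 0.68 ± 0.17), and in XY it rose from E11.5 to E12.5 (log2 0.68 ± 0.17).

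Notch3, the receptor typical of mural and interstitial cells, fell from E11.5 to E13.5 in both cell types (GRCm38 chr17:32120820-32166852, minus strand). In XX it measured 17.7, 5.46 and 27.4 CPM (E11.5), 7.54, 9.14 and 5.27 (E12.5), 3.19, 2.2 and 3.25 (E13.5) and 1.91, 2.27 and 2.49 (E15.5). In XY it measured 11.1, 16.1 and 15.7 CPM (E11.5), 2.38, 2.03 and 1.87 (E12.5), 0.553, 0.598 and 0.822 (E13.5) and 1.65, 1.01 and 0.886 (E15.5). The groups overlapped at E11.5 and lay apart at the 3 later stages, with XX above XY. At E11.5 the difference was 0.24 on the log2 scale (adjusted p = 0.618, edgeR), became a call in favour of XX without XX replicate 2 (log2 0.65, adjusted p = 0.0349, edgeR), and was -0.31 without XX replicate 3. XX was 3.49-fold higher at E12.5 (log2 1.8 ± 0.39, adjusted p = 0.000408, edgeR) and 4.23-fold higher at E13.5 (log2 2.08 ± 0.46, adjusted p = 0.000422, edgeR). The E13.5 call was lost on the deposited TPM, values scaled to transcript length and library size, as log2(TPM + 1). There the difference was 0.65, with an adjusted p of 0.0608 with a filter and 0.096 without (limma). At E15.5 the difference was 0.89 ± 0.44 and did not pass (adjusted p = 0.077, edgeR). From E11.5 to E12.5 Notch3 fell 6.8-fold in XY and 2.3-fold in XX, and the XX fall was lost without XX E11.5 replicate 3 (log2 -0.66, adjusted p = 0.161, edgeR) or without XX E12.5 replicate 3 (log2 -1.05, adjusted p = 0.0578, edgeR). From E12.5 to E13.5 it fell in XX (log2 -1.36 ± 0.39) and in XY (log2 -1.64 ± 0.45), calls that ended without XX E12.5 replicate 2 or XX E13.5 replicate 2, and without XY E13.5 replicate 1 or replicate 2. From E13.5 to E15.5 the XY libraries all lay higher, but the step did not pass (log2 0.85 ± 0.48, adjusted p = 0.235, edgeR). Nor did that step in XX (log2 -0.34 ± 0.42, adjusted p = 0.595, edgeR). The summed CPM of the 8 mural markers went from between 162.9 and 905.8 at E11.5 to between 91.4 and 103.7 at E12.5 in XX, and from between 154 and 300.3 to between 68.5 and 81.8 in XY. One of the 8, Rgs5, chosen after its values were seen, went from a mean of 187.8 to 10.7 CPM in XX and from 121.6 to 0.151 CPM in XY between E11.5 and E12.5. The whole list fell less than Rgs5, as its sums show. At E13.5 and E15.5 the mural sum was 78.8 to 97.4 and 42 to 45.7 CPM in XX. In XY it was 51.3 to 55.8 CPM at E13.5 and higher again at E15.5, at 91.2 to 97.1. The interstitial sum went in XY from between 1073.5 and 1838.4 CPM at E11.5 to between 57.1 and 66 at E12.5. Their part in the Notch3 levels was not tested.

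Jag1, a ligand for all 3 receptors, was the ligand with the larger difference (GRCm38 chr2:137081456-137116644, minus strand). The XX libraries measured 32.6, 9.81 and 89.8 CPM (E11.5), 3.19, 3.14 and 1.85 (E12.5), 4.44, 6.77 and 6.65 (E13.5) and 4.25, 4.86 and 8.29 (E15.5). The XY libraries measured 14.6, 10.4 and 17.4 CPM (E11.5), 19.8, 21.7 and 20.2 (E12.5), 22.7, 26.4 and 27.5 (E13.5) and 21.9, 24.8 and 25.6 (E15.5). From E12.5 all XY libraries were above all XX libraries, and at E11.5 the XX libraries spread from below to well above the XY range. Jag1 was 7.53-fold higher in XY at E12.5 (log2 -2.91 ± 0.51, adjusted p = 4.97e-05, edgeR), 4.26-fold at E13.5 and 4.06-fold at E15.5 (log2 -2.02 ± 0.48, adjusted p = 0.000972, edgeR). At E11.5 it was called higher in XX (log2 1.63 ± 0.45, adjusted p = 0.00648, edgeR), a call that ended without XX replicate 3 (log2 0.57, adjusted p = 0.189, edgeR). Between E11.5 and E12.5 the XX fall was -4.01 ± 0.52 with all libraries and -2.95 without XX E11.5 replicate 3 (adjusted p = 2.62e-05, edgeR). The later XX libraries were at 2.72, 5.95 and 5.8 CPM on average, and the step from E12.5 to E13.5 did not pass (log2 1.13 ± 0.52, adjusted p = 0.105, edgeR). In XY no step passed, and the test across the 4 stages gave an adjusted p of 0.308 (edgeR).

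Jag2, the second Jagged ligand, was low in every group (GRCm38 chr12:112907819-112929776, minus strand). Its 24 libraries ranged from 0.359 to 2.46 CPM, group means ran from 0.612 to 1.82 CPM, and the XX and XY libraries overlapped at all 4 stages. It was called at no stage, and its differences ran from -0.34 ± 0.47 at E15.5 to 0.53 ± 0.44 at E13.5 on the log2 scale. With SEs of this size, differences larger than the 1.44-fold seen at E13.5 could also go uncalled. A 1.96-fold fall in XY from E12.5 to E13.5 did not pass (adjusted p = 0.126, edgeR). The test across the XX stages passed (adjusted p = 0.0205, edgeR), with means of 1.46, 1.82, 1.04 and 0.612 CPM, and that call ended without any of 3 XX libraries (adjusted p up to 0.0756).

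Lfng, which modifies Notch receptors in the Golgi, had the largest XX minus XY difference of the 10 genes (GRCm38 chr5:140607320-140615545, plus strand). In XX it measured 3.37, 2.29 and 3.44 CPM (E11.5), 3.38, 4.23 and 2.81 (E12.5), 1.48, 1.7 and 1.96 (E13.5) and 0.434, 0.8 and 0.356 (E15.5). In XY it measured 5.24, 4.96 and 3.86 CPM (E11.5), 17.5, 20.4 and 19.6 (E12.5), 26.4, 21.3 and 23 (E13.5) and 42, 39.7 and 38.9 (E15.5). The XX and XY libraries did not overlap at any stage, and the gap widened at each one. XY was 1.56-fold higher at E11.5 (log2 -0.64 ± 0.19, adjusted p = 0.0108, edgeR), a call lost without XX E11.5 replicate 2 (log2 -0.47, adjusted p = 0.0609, edgeR). It was 5.51-fold higher at E12.5, 13.7-fold at E13.5 and 77-fold at E15.5 (log2 -6.27 ± 0.25, adjusted p = 9.19e-15, edgeR). Lfng changed in opposite directions in XX and XY: in XY it rose 4.08-fold from E11.5 to E12.5 and 1.71-fold from E13.5 to E15.5, and in XX it fell 2.02-fold from E12.5 to E13.5 and 3.29-fold from E13.5 to E15.5. No single library ended any of these stage calls.

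Hes1, a repressor that is induced directly by Notch in many tissues and also by other signals, had the most RNA of the 4 targets and was higher in pre-granulosa cells after E11.5 (GRCm38 chr16:30064384-30067796, plus strand). The XX libraries measured 70.5, 62.2 and 74.6 CPM (E11.5), 123, 119.7 and 68.5 (E12.5), 112.5, 97.8 and 91.8 (E13.5) and 191.3, 156.2 and 178.8 (E15.5). The XY libraries measured 62.2, 58.8 and 80.4 CPM (E11.5), 12.7, 18.5 and 30.3 (E12.5), 26.2, 34.6 and 38.4 (E13.5) and 18.4, 15.7 and 15.1 (E15.5). The E11.5 libraries overlapped, and from E12.5 every XX library was above every XY library. The difference was 0.04 ± 0.23 at E11.5 (adjusted p = 0.906, edgeR), then XX was 5.05-fold higher at E12.5 (log2 2.34 ± 0.25, adjusted p = 7.73e-08, edgeR), 3.04-fold at E13.5 and 10.7-fold at E15.5 (log2 3.41 ± 0.26, adjusted p = 3.72e-10, edgeR). In XY, Hes1 fell 3.27-fold from E11.5 to E12.5 (log2 -1.71 ± 0.24) and 2.01-fold from E13.5 to E15.5 (log2 -1.01 ± 0.25), and the step between them did not pass (log2 0.69 ± 0.24, adjusted p = 0.0558, edgeR). In XX it rose from E13.5 to E15.5 (log2 0.8 ± 0.23, adjusted p = 0.0162, edgeR), a call that ended without any of 4 libraries (adjusted p up to 0.0636), and the step from E11.5 to E12.5 did not pass (log2 0.59 ± 0.23, adjusted p = 0.059, edgeR).

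Hey1, a Hes-related repressor, fell in both cell types but at different stages (GRCm38 chr3:8663359-8667256, minus strand). In XX it measured 60.3, 52.7 and 68 CPM (E11.5), 50.4, 46.3 and 55.9 (E12.5), 53, 50.3 and 44.9 (E13.5) and 17.8, 19.5 and 18.4 (E15.5). In XY it measured 56, 58.5 and 51 CPM (E11.5), 15.1, 15.1 and 15.9 (E12.5), 3.87, 4.22 and 3.82 (E13.5) and 2.99, 2.64 and 2.91 (E15.5). The replicates of Hey1 lay close together, the cell types overlapped at E11.5, and they were fully apart afterwards. XX was 3.31-fold higher at E12.5 (log2 1.72 ± 0.1, adjusted p = 7.56e-12, edgeR), 12.4-fold at E13.5 (log2 3.63 ± 0.12, adjusted p = 3.86e-16, edgeR) and 6.5-fold at E15.5 (log2 2.7 ± 0.12, adjusted p = 5.34e-14, edgeR), beside 0.13 ± 0.1 at E11.5 (adjusted p = 0.313, edgeR). In XY it fell 3.58-fold, 3.87-fold and 1.39-fold at the 3 steps, each of them called. In XX the one step called was the last, a 2.66-fold fall from E13.5 to E15.5 (log2 -1.41 ± 0.1, adjusted p = 9.63e-09, edgeR), and the first gave -0.25 ± 0.1 (adjusted p = 0.0623, edgeR).

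Hey2, the Hey gene best known from arteries and the heart, was low after E11.5, and its counts ran from 0 to 166 per library (GRCm38 chr10:30832359-30842801, minus strand). In XX it measured 1.44, 0.734 and 6.29 CPM (E11.5), 0.117, 0.227 and 0.0879 (E12.5), 0.667, 0.581 and 0.831 (E13.5) and 0, 0.2 and 0.223 (E15.5). In XY it measured 1.77, 3.61 and 4.33 CPM (E11.5), 0.607, 1.04 and 0.503 (E12.5), 0.553, 0.518 and 0.5 (E13.5) and 0.564, 0.393 and 0.19 (E15.5). The highest values were at E11.5 in both cell types, and the later groups rested on few counts, such as 10 counts over the 3 XX E12.5 libraries. Hey2 fell from E11.5 to E12.5 in XY (log2 -2.17 ± 0.59, adjusted p = 0.00414, edgeR) and in XX (log2 -4.23 ± 0.72, adjusted p = 0.000202, edgeR), where the fall was -2.87 without XX E11.5 replicate 3. It was called higher in XY at E12.5 (log2 -2.29 ± 0.76, adjusted p = 0.0127, edgeR), a call that ended without any of 3 libraries, and its rise in XX from E12.5 to E13.5 (log2 2.22 ± 0.78, adjusted p = 0.035, edgeR) ended without any of 5. At E11.5 it became a call in favour of XY once XX replicate 3 was left out (log2 -1.59, adjusted p = 0.0132, edgeR).

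Heyl, a Hey-family target often used as a readout of Notch activity in mural cells, rose with stage in XY (GRCm38 chr4:123233556-123249875, plus strand). Heyl had its highest XX mean at E11.5. In XX it measured 19, 3.67 and 52.3 CPM (E11.5), 3.69, 5.05 and 3.95 (E12.5), 3.04, 3.2 and 2.87 (E13.5) and 1.39, 1.47 and 1.43 (E15.5). In XY it measured 4.81, 5.89 and 9.58 CPM (E11.5), 8.08, 5.43 and 7.49 (E12.5), 8.51, 8.93 and 10.9 (E13.5) and 22.6, 20.8 and 23.9 (E15.5). Leaving aside the wide E11.5 group, every XY library was above every XX library of its stage. The difference did not pass at E12.5 (log2 -0.73 ± 0.52, adjusted p = 0.231, edgeR), and Heyl was 3.1-fold higher in XY at E13.5 (log2 -1.63 ± 0.54, adjusted p = 0.012, edgeR) and 15.7-fold at E15.5 (log2 -3.97 ± 0.6, adjusted p = 6.59e-06, edgeR). The test across the XY stages passed (adjusted p = 0.00755, edgeR), while the single step from E13.5 to E15.5 did not (log2 1.25 ± 0.49, adjusted p = 0.0792, edgeR). At E11.5 Heyl was called higher in XX (log2 1.88 ± 0.5, adjusted p = 0.00504, edgeR), and without XX replicate 3 it was not (log2 0.72, adjusted p = 0.147, edgeR). The XX fall from E11.5 to E12.5 was -2.55 ± 0.52 with that library and -1.41 without it (adjusted p = 0.0135, edgeR). This fall was not called on TPM, the deposited values scaled to transcript length and library size (adjusted p = 0.061 to 0.0845, limma). With only the libraries compared it was not called either (adjusted p = 0.0867, edgeR), and no later XX step passed.

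Within the XX E11.5 group, Notch1, Notch3, Jag1, Hey2 and Heyl shared 1 order of the libraries, replicate 3 above replicate 1 above replicate 2, and this was also the order of the mural, interstitial, immune and erythroid marker sums. The endothelial sum had another order, with 37.1, 55.9 and 70.1 CPM in replicates 1, 2 and 3. Lfng, Hes1 and Hey1 had the order of the 5 genes but spread less, from 2.29 to 3.44, from 62.2 to 74.6 and from 52.7 to 68 CPM. Notch2 had the reverse order, with 155.7, 161.3 and 142.8 CPM in replicates 1, 2 and 3. Jag2 was lowest in replicate 3, at 0.908 CPM. The mural sum was higher in XX at E12.5 (91.4 to 103.7 CPM against 68.5 to 81.8 in XY) and at E13.5 (78.8 to 97.4 against 51.3 to 55.8). At E15.5 it was higher in XY, at 91.2 to 97.1 CPM against 42 to 45.7 in XX. Over all stages after E11.5 the immune sum was 28.9 to 53.7 CPM in XX against 0.327 to 1.55 in XY. The interstitial sum was 363.7 to 684.6 CPM in XX against 39 to 210.9 in XY. None of the 8 mural and none of the 10 interstitial markers was without a count in any group, and at E12.5 in XY 4 of the 8 immune markers (Cd53, C1qa, C1qb and Aif1) had none. Many mural counts were low: in XY 2 of the 8 markers averaged at least 1 CPM at E12.5 and 2 at E13.5. In XX 5 and 6 did so. The part of these cells in the XX E11.5 levels of the Notch genes was not tested. Of the 4 calls at E11.5, 2 (Jag1 and Heyl) ended without XX replicate 3, 1 (Lfng) ended without XX replicate 2, and that of Notch2 held without any 1 library.

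**Figure D3:**
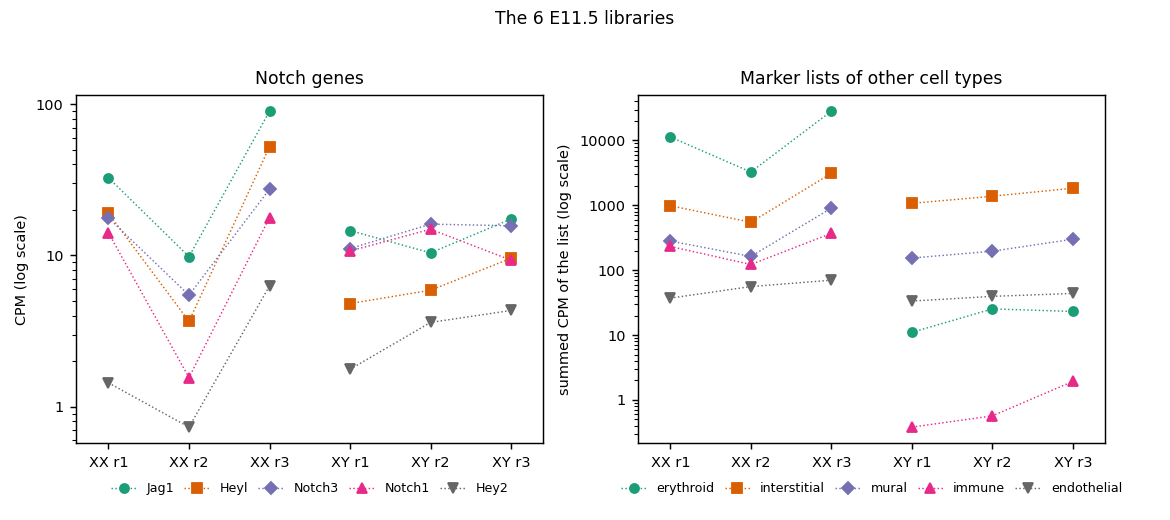
The 6 E11.5 libraries, XX and XY replicates 1 to 3 on the horizontal axis; the left panel gives CPM of 5 Notch genes and the right panel the summed CPM of 5 marker lists, both on log axes, with dotted lines to guide the eye only. In XX the 5 genes and 4 of the lists are lowest in replicate 2 and highest in replicate 3, with Jag1 running from 9.81 to 89.8 CPM.

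Between neighbouring stages more of the 10 genes were called at the first step than at the later ones, as was so over all genes tested. In XX, 6 of the 10 changed from E11.5 to E12.5 and all 6 fell, against 34% of all genes tested that changed in either direction. The 6 were Notch1, Notch2, Notch3, Jag1, Hey2 and Heyl, and 5 genes passed when XX E11.5 replicate 3 was left out. With only the libraries compared in the fit, 3 passed. At that step in XY 6 of the 10 changed, beside 51.9% of all genes: Notch2 and Lfng rose, and Notch3, Hes1, Hey1 and Hey2 fell. The next step, to E13.5, brought 4 changes in XX (31.7% of all genes), with Notch2 and Hey2 rising and Notch3 and Lfng falling, and 2 in XY (16.6%), where Notch3 and Hey1 fell and none rose. At the last step 3 genes changed in XX (25.6%), Hes1 upward and Lfng and Hey1 downward, and 3 changed in XY (21.3%), Lfng upward and Hes1 and Hey1 downward. Apart from the first XX step, these shares of members were near those of all genes. Where none rose, 1 gene (Hes1 in both cases) had an unadjusted p under 0.05 in that direction in edgeR, and DESeq2 called 0 at the XX step and 1 at the XY step.

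The test of any change across the 4 stages passed for all 10 genes in XX, where 74% of all genes passed, and for 7 in XY, where 70.3% did. The 3 that did not pass in XY were Notch1, Jag1 and Jag2. The interaction of sex with stage, which asks if the gap between XX and XY varied over the stages, passed for 8 of the 10 genes against 70.1% of all genes. It was strongest for Hey1 (adjusted p = 1.23e-12, edgeR) and Lfng (adjusted p = 6.93e-11, edgeR), and did not pass for Jag2 (0.589) or Hey2 (0.0925). With the test limited to the 3 later stages, an alternative added after the data were seen, 5 genes passed: the interaction no longer did so for Notch1 (adjusted p = 0.592), Notch3 (0.239) and Jag1 (0.459), all edgeR. For those 3 genes a change of the XX minus XY difference with stage was thus called only with the E11.5 libraries in the test. Across the XX stages the same limit left 7 genes called, without Notch1, Jag1 and Heyl, and across the XY stages it left 5.

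Levels of different genes can be set beside each other only per length, here as the deposited TPM, which are scaled to transcript length and library size. On that scale Hes1 was the highest of the 10 in every XX group, with means from 78.7 at E11.5 (libraries 65.4 to 85.4) to 178.4 ± 9.18 at E15.5 (SD, n = 3). At E11.5 it was also highest in XY, at 83.7 ± 16.4 TPM, ahead of Hey1 at 40.1 ± 1.96. By E15.5 the XY order was Lfng at 27.6 ± 1.36, Notch2 at 25.3 ± 2.85 and Hes1 at 18.8 ± 2.36 TPM, of which Lfng and Notch2 overlapped between libraries, followed by Heyl at 10.3 ± 1.75, Jag1 at 6.41 ± 0.465 and Notch1 at 5.19 ± 0.633. In XX at E15.5 Hes1 was followed by Notch2 at 29.3 ± 8.4 and Hey1 at 11.4 ± 1.45 TPM, and the other 7 genes had means of at most 1.46 TPM. Notch2 was the receptor with the highest TPM in all 8 groups. Among the receptors in XY at E15.5, Notch1 came next and Notch3, at 0.44 ± 0.135 TPM, was the lowest.

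Across the 8 group means, on a scale of log2(CPM + 1), the genes fell into opposing patterns. These correlations are descriptions over 8 points that share libraries, and carry no test. Hes1 ran against Lfng (r = -0.97) and Notch1 (r = -0.9), while Notch1 ran with Lfng (r = 0.86), Jag1 (r = 0.85) and Heyl (r = 0.8). Hey1 was closest to Notch3 (r = 0.85), and Notch2 ran against Jag2 (r = -0.82). Among 10872 genes that passed the filter and reached 10 CPM in a group mean, the 3 most like Notch1 were Nes (r = 0.993), Mettl2 (0.984) and Bend4 (0.983). For Lfng they were BC034090 (r = 0.997), Zyx (0.994) and Epha2 (0.994). For Hes1 they were Rasa2, Prkag2 and Hmox2 (r = 0.981 to 0.977), and for Hey1 Memo1, Peg3 and Tgfbr3 (0.991 to 0.984). For Jag1 they were Bcl2l1, Xk and Tmem265 (0.986 to 0.958), and for Heyl Kif5c, Idi1 and Pea15a (0.965 to 0.945). Notch3 was nearest to Tgm3, Slc9a3r1 and Sdc3 (0.987 to 0.975) and Hey2 to Mecom, Ccdc3 and Ebf1 (0.98 to 0.969). Necap1, Cnpy4 and Cox17 were nearest to Notch2 (0.983 to 0.978), and Trp53bp2, Atf5 and Eif2s3x to Jag2 (0.968 to 0.966). The correlation ignores the size of a change: Nes ran from 1.39 to 25.7 CPM, but Mettl2 only from 43.1 to 59.7.

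The rest of the pathway was followed in a list of 44 genes, of which 41 were tested, Dll4, Hes2 and Hes3 being too low. The genes called with more RNA in XX numbered 10, 12, 10 and 16 over the 4 stages in order, and those with more RNA in XY 6, 16, 15 and 15. Beside these stand the shares of all genes, 21.4%, 30.5%, 32.8% and 34.9% for XX and 20.6%, 31.5%, 33.3% and 34.4% for XY, so most of these counts were near the background. The interaction with stage passed for 33 of the 41, against 70.1% of all genes. The list's median log2 difference stayed between -0.12 and 0.11 at the 4 stages, over genes that went both ways.

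**Figure D4:**
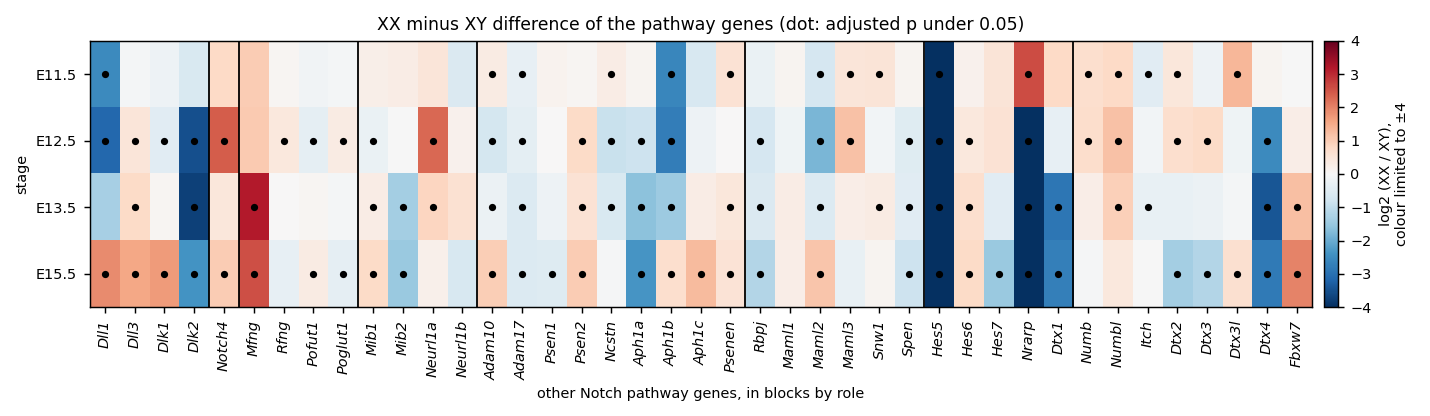
log2 difference between XX and XY (colour, red where XX is higher, blue where XY is higher, limited to 4 either way) of the 41 tested pathway genes at the 4 stages; black lines part the blocks by role and a dot marks an adjusted p under 0.05. Hes5 is blue with a dot at all 4 stages, and Nrarp changes from red at E11.5 to blue.

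Among the other targets and feedback genes, Hes5, a Hes gene that is induced by Notch in neural progenitors, stood at a few counts in XX. Its XX libraries ranged from 0 to 0.267 CPM, and its XY means were 5.95 ± 1.83, 43.6 ± 5.51, 23.9 ± 1.25 and 31.4 ± 0.533 CPM (SD, n = 3). The pooled ratio of XY to XX was 47.8 at E11.5 (95% counting interval 23.1 to 119.4) and 616.7 at E12.5 (263.9 to 1900.6). All 4 differences were called, the one at E11.5 with an adjusted p of 2.5e-09 (edgeR). In the annotation 31.8% of the exonic bases of Hes5 are shared with a transcript on the opposite strand. Its interaction with stage ended without XX E11.5 replicate 1 (adjusted p = 0.381, edgeR).

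Nrarp, a feedback inhibitor that acts on the Notch transcription complex, had no count in the 3 XX E12.5 libraries and averaged 1.79 CPM in XY there, at least 13.1-fold higher against 3 counts per library. At E15.5 it had 1 count over the 3 XX libraries and 213 over the 3 XY libraries, a ratio of 184.1 (95% counting interval 32.7 to 7304.9). At E11.5 it was called higher in XX (log2 2.62 ± 0.89, adjusted p = 0.0239, edgeR), with XX libraries from 0.688 to 15.8 CPM, and this was lost without XX replicate 3 (log2 0.33, adjusted p = 0.748, edgeR) or XY replicate 1 (log2 2.08, adjusted p = 0.082, edgeR). Dtx1, a Deltex ubiquitin ligase, was 7.48-fold higher in XY at E13.5 and 6.6-fold at E15.5, where it averaged 131.3 ± 10.9 CPM against 20 ± 3.81 in XX. Dtx4, of the same family and listed under receptor turnover, was higher in XY at the 3 later stages, by 5.83-fold, 10.8-fold and 7.09-fold. At E15.5 all 5 tested genes among the other targets and feedback genes were called, 4 of them higher in XY (34.4% of all genes) and 1 higher in XX (34.9%).

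Among the ligands, Dll1 had a pattern of its own. It was higher in XY at E11.5 (7.8 against 1.33 CPM, log2 -2.56 ± 0.54) and at E12.5 (6.68 against 0.753 CPM, log2 -3.13 ± 0.56), fell to 0.857 CPM in XY at E13.5, and was called higher in XX at E15.5 (1.32 against 0.36 CPM, log2 1.88 ± 0.67, adjusted p = 0.0163, edgeR). The E15.5 call ended without XY replicate 2 (log2 1.47, adjusted p = 0.0625, edgeR). Among the Fringe enzymes, the XX minus XY difference of Mfng at E13.5 was opposite in direction to that of Lfng. Mfng was higher in XX (0.559 against 0.0686 CPM, adjusted p = 0.000625, edgeR), though on 30 and 4 counts over 3 libraries each.

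The γ-secretase and nuclear parts of the pathway were present throughout. Of the 9 receptor cleavage genes, 5 were called higher in XY and 1 higher in XX at E12.5, where 31.5% and 30.5% of all genes were. At E15.5 they numbered 3 and 5, beside 34.4% and 34.9%. Aph1a, a γ-secretase subunit, was 5.09-fold higher in XY at E15.5 (151.1 ± 16.4 against 29.8 ± 5.72 CPM). Aph1b was 6.85-fold higher in XY at E12.5 (129.7 ± 2.92 against 18.9 ± 3.46 CPM) and 1.59-fold higher in XX at E15.5, and since it has a near-identical neighbour in Aph1c, how reads were shared between them affects both. Of the 6 nuclear complex genes, 3 favoured XY and 1 favoured XX at both E12.5 and E13.5, and in all the share called was near that of all genes. Rbpj, the DNA-binding partner of all Notch receptors, was 1.58-fold, 1.5-fold and 2.23-fold higher in XY at the 3 later stages. Fbxw7, which targets the Notch intracellular domain for degradation, was higher in XX, by 2.28-fold at E13.5 and 3.98-fold at E15.5 (74.8 ± 4.06 against 18.8 ± 2.49 CPM). No single library ended the calls of Aph1a, Aph1b, Rbpj, Dtx1, Dtx4 or Fbxw7 given here.

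Promoters were read for the genes in question to show where letters bound by RBPJ stand. RefSeq promoters on GRCm38.p6 (250 bases before to 50 after the start) matched 7 of the 10 members and 35 of the 44 pathway genes. The members without a match were the target genes Hes1, Hey1 and Heyl. Of the targets among the members, the counts thus cover Hey2 only. The RBPJ core TGGGAA, searched on both strands, was found in 2 of the 7 members (Lfng and Hey2) and in 8 of the 35 pathway genes, among them Hes5, and in 25.5% of 27025 promoters of the same length. The E-box CANNTG was in 3 of the 7 members and 72.1% of all promoters, and the N-box CACNAG, searched on both strands, in 4 of the 7 and 42.6%. The sequences shown are those of Lfng, the member with the largest difference, of Hey2, the other member with the core, and of Hes5, the pathway gene with the largest difference, each from base -250 to base -51 on the gene's strand, 5′ to 3′, where -1 is the last base before the start. Capitals mark the RBPJ core, TTCCCA being the core on the opposite strand.
Lfng promoter, GRCm38 chr5:140607091-140607290, plus strand: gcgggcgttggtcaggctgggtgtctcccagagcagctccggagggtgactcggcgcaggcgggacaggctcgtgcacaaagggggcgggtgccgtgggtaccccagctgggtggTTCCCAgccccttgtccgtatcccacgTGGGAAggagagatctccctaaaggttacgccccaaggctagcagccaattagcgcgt
Hes5 promoter, GRCm38 chr4:154960673-154960872, plus strand: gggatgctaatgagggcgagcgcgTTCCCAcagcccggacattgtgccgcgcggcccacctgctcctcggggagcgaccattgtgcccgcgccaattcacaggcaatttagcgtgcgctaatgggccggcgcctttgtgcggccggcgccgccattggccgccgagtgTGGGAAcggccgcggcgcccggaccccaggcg
Hey2 promoter, GRCm38 chr10:30842834-30843033, minus strand: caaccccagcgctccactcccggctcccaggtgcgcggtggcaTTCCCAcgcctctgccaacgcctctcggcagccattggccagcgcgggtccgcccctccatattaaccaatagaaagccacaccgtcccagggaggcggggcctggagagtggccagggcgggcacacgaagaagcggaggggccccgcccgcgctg
The cores of Lfng begin at -135 (opposite strand) and -108, and the second overlaps an E-box that begins at -112. Those of Hes5 begin at -226 (opposite strand) and -82. Hey2 has 1 core in the bases shown, which begins at -207 (opposite strand), and a second at -3, outside them. These are matches of letters, with no measure of binding in these data.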

How the data were processed

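Polyadenylated RNA of the sorted cells was amplified with a low-input kit without molecular identifiers, per the labels' protocols. The authors deposited 1 table of expected (estimated) counts and 1 of TPM, for 32040 genes in 24 libraries. The build is mm10, per the submitters' processing notes; the aligner, the counter and the use of strand are not given in the sources used here. Of the deposited expected counts 17.5% were not whole and were rounded.

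The counts were fitted with edgeR 4.0.16 in R 4.3.3 (filterByExpr, TMM scaling, 8 groups, robust quasi-likelihood fit over all 24 libraries with 16 residual degrees of freedom), and p-values were adjusted by Benjamini-Hochberg over 16190 genes. Comparisons were XX minus XY at each stage, each step between stages, any change across stages, and the interaction of sex with stage. SEs are the log2 difference divided by the square root of F. The script was tested on simulated data. Intervals cover counting error only. In the 24 replicate pairs, chi-square per degree of freedom was 3.83 to 114.3, so no library was counted as a duplicate.

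Alternatives were DESeq2 1.42.0 and its size factors, no filter, a replicate block, limma 3.58.1 on log2 of the authors' deposited TPM plus 1 or 0.1 with and without a filter, only the libraries compared, and each library left out. The 10 genes, the pathway list and the marker lists were chosen with earlier results of these data known. All 10 genes are described, and 1 gene planned for the pathway list is not reported here. The genes named for likeness are the 3 with the highest Pearson r to each member over 8 group means. Gene positions come from GENCODE M21 and promoters from RefSeq.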

Additional observations from a re-analysis of the deposited data

Results flagged for a closer look

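For the genes named here the XX minus XY difference changed with stage, by the edgeR test of the interaction itself over all 24 libraries, which passed for 70.1% of all genes tested. Among the 10 Notch genes the adjusted p was 3.51e-05 for Notch1, 0.000804 for Notch2, 0.0187 for Notch3, 3.05e-05 for Jag1, 6.93e-11 for Lfng, 4.88e-07 for Hes1, 1.23e-12 for Hey1 and 2.05e-05 for Heyl. The Notch3 call was lost on log2(TPM + 1) (adjusted p = 0.183, limma) and on TPM without a filter (0.262), and those of Notch1, Notch3 and Jag1 were lost with E12.5 to E15.5 only. Notch2 changed sign between called stages, from 0.77 at E11.5 to -0.46 at E12.5. The Notch2 call at E12.5 ended when any of several single libraries was left out, and on every TPM setting (adjusted p = 0.185 to 0.258, limma). Jag1 went from 1.63 to -2.91, and the first of these was lost without XX E11.5 replicate 3 and on every TPM setting.

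Among the other pathway genes it was 0.000183 for Dll1, which went from -2.56 at E11.5 to 1.88 at E15.5. It was 5.97e-09 for Aph1a, 1.04e-10 for Aph1b, 0.000546 for Rbpj, 0.019 for Hes5 and 0.00017 for Nrarp. It was 3.86e-07 for Dtx1, 1.24e-08 for Dtx4 and 2.09e-08 for Fbxw7. Leaving out XX E11.5 replicate 1 ended the call for Hes5 (adjusted p = 0.381, edgeR), and with E12.5 to E15.5 only it was lost for Hes5 (0.533) and for Nrarp (0.583).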

How the results depend on the processing

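Of 74 member differences and tests across stages that were called, 63 held when any 1 library was left out, 51 held under every setting tried, and 0 reversed. DESeq2, its size factors and no filter each kept all 74. On log2(TPM + 1), log2(TPM + 0.1) and TPM without a filter 10, 7 and 12 were lost, and fitting only the libraries compared lost 7 of 66; the cause was not tested. The members called between XX and XY at E11.5 went from 4 to 2 on each TPM scale and to 1 with only the libraries compared. At the XX step from E12.5 to E13.5 they went from 4 to 2, 2 and 1 on the 3 TPM settings. At the XY step from E12.5 to E13.5 they went from 2 to 1 on TPM without a filter and to 4 with only the libraries compared, which also gave 3 in place of 6 at the first XX step and 5 in place of 3 at the last XY step. The interaction went from 8 to 5 with E12.5 to E15.5 only, an alternative chosen after seeing the data.

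Without 1 library the members called between XX and XY were 3 to 4, 6 to 8, 7 to 7 and 6 to 7 from E11.5 to E15.5. They were 5 to 8, 2 to 5 and 2 to 5 at the XX steps, 6 to 7, 1 to 3 and 3 to 5 at the XY steps, 9 to 10 across XX stages, 7 to 9 across XY stages and 8 to 9 for the interaction (30 to 34 pathway genes). The last step went to 5 in XX and in XY without XX E11.5 replicate 2, the XX step from E12.5 to E13.5 to 2 without XX E13.5 replicate 2, and that step in XY to 1 without XY E13.5 replicate 2.

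These are sign changes among differences that had not passed and that the text gives with their values; others that had not passed were not all listed. Hes1 at E11.5 was -0.08 on the 3 TPM settings, -0.03 without XX replicate 3 or XY replicate 1, and -0.06 without XY replicate 2 (range without 1 library -0.06 to 0.2). Notch3 at E15.5 was -0.02, -0.04 and -0.02 on the 3 TPM settings. Notch1 at E11.5 was 0.45 without XX replicate 2 and 0.14 without XY replicate 2 (range -0.6 to 0.45), and Notch2 at E15.5 was -0.01 without XX replicate 3 (range -0.01 to 0.52). With 1 XX E11.5 library left out, Notch3 at E11.5 went from 0.24 to -0.31 (replicate 3), Hey2 from -0.22 to 0.08 and 0.23 (replicates 1 and 2) and Jag2 from 0.05 to -0.14 and -0.05 (the same replicates).

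Replicate numbers did not pair the samples: over 84 same-number pairs the deviations correlated at -0.193 to 0.351 (median 0.00288, against 0.00351 for different numbers). With the replicate block all 74 calls held and 0 were gained, with 4 members called at E11.5.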
